A study of Mus musculus with 2 samples.

Results

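The 10 genes described here, Glul, Oat, Rhbg, Lgr5, Rnf43, Znrf3, Axin2, Nkd1, Tbx3 and Sp5, depend on Wnt signalling in hepatocytes beside the central vein of the liver lobule. They were chosen by name, as the rows of both expression tables whose GENCODE mouse symbol is on that list, and all 10 were found among 47442 features. The libraries came from livers of C57BL/6 mice aged 8 to 9 weeks, taken 10 days after adenovirus was injected into a tail vein. The control virus encoded β-galactosidase (Beta-Gal in the labels), an enzyme of bacteria, and its library is called the control or β-Gal library. The virus of the comparison group encoded GBP5, a GTPase that interferon induces. All mice therefore carried an adenovirus, and each group held 1 RNA sequencing library. The number of animals behind a library, the promoter that drives the transgene and the species of the GBP5 sequence are not stated in the labels. According to the title of the series, the study asked about liver injury and inflammation after GBP5 was raised.

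In the liver lobule, endothelial cells of the central vein secrete Wnt ligands and R-spondin, and the hepatocytes next to the vein respond through β-catenin and TCF/LEF transcription factors. That response switches on pericentral functions, of which glutamine synthesis from ammonia is the best known, while periportal hepatocytes carry out urea synthesis and gluconeogenesis. It also switches on feedback genes such as Axin2, Rnf43, Znrf3 and Nkd1, whose proteins restrain the same pathway.

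The promoters of 4 genes are shown for reference because their genes stand for both arms of the group, with Sp5 and Axin2 as pathway feedback genes and Glul and Oat as nitrogen enzymes. Each runs from 250 bases before to 50 bases after the RefSeq start site (GRCm38.p6), 5′ to 3′ on the strand of the gene. Sp5 lies at chr2:70474673-70474972 (plus), Axin2 at chr11:108920099-108920398 (plus), Glul at chr1:153899679-153899978 (plus) and Oat at chr7:132576349-132576648 (minus). Capitals mark CTTTGNN on either strand, counted where each N was an adenine or a thymine, which is the core of the motif that TCF/LEF factors bind.
Sp5: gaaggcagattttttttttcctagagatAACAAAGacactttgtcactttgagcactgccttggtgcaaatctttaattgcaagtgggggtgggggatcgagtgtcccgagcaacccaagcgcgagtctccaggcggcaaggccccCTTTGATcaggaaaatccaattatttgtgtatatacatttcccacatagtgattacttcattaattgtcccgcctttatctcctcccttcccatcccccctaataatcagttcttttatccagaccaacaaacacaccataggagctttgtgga
Axin2: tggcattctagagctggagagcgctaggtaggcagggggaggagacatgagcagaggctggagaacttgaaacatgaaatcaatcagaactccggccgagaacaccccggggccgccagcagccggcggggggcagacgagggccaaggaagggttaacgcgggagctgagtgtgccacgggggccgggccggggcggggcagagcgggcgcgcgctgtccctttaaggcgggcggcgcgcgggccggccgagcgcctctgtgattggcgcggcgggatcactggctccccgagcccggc
Glul: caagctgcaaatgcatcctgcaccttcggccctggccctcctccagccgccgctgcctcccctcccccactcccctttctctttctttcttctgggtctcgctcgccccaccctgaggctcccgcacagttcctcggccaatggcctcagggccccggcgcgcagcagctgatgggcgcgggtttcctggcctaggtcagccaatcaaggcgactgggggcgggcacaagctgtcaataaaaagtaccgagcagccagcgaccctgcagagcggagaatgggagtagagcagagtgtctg
Oat: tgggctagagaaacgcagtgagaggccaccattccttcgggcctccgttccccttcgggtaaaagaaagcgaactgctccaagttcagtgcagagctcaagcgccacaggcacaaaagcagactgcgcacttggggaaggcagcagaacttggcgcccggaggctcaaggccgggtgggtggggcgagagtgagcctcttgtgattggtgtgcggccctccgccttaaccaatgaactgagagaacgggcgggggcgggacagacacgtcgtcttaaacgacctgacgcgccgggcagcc
The Sp5 window held a pair of such matches, with first bases at -222 and -104 relative to the start site. No match was present in the windows of Axin2, Glul, Oat, Nkd1 or Rnf43, and 16.9% of all 32851 promoter windows held at least 1. Promoters were matched for 6 of the 10 genes, and Lgr5, Znrf3, Tbx3 and Rhbg are named only.

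Expression was deposited as FPKM, fragments scaled by gene length and by the assigned reads of the library. The values were whole multiples of a single read, which gave 18405429 assigned reads in the control library and 17205716 in the GBP5 library. With 1 library per group no test was possible, and higher or lower always refers to GBP5 over control. Intervals are exact 95% intervals and cover counting error only, not differences between animals. Mouse Gbp5 itself was at 4.24 and 19.1 FPKM (control first, as for every pair of values below). Most genes lay above parity, with a median FPKM ratio of 1.45 over the 11828 genes at 1 FPKM or more in both libraries, so the log2 ratio of each of the 10 genes is also given after the GBP5 library was divided by that median ("rescaled").

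Transcripts of 9 of the 10 genes were less abundant in the GBP5 library, and Znrf3 was the exception. For 8 of the 9 the 95% interval of the FPKM ratio lay below 1, and the interval of Rhbg, the gene with the fewest reads, included 1. The median FPKM ratio of all 10 genes was 0.559. Oat stood apart with a ratio of 0.189, and 6 of the genes had ratios between 0.5 and 0.75. The matching shares of all features were not computed, so these counts by interval and by ratio are a description only. On the log2(FPKM + 1) scale, which understates the change of low genes, 9 genes reached the minimum of 1 FPKM in either library, and Oat alone passed the 2-fold size rule of a log2 ratio of -1 or less, as did 5.56% of all 13599 features with at least 1 FPKM. None was at least 2-fold higher, against 19.2% of all features. A log2 ratio under 0 was found for 8 of the 9 genes that reached the minimum and for 22.5% of all features. Nkd1 and Sp5 reached the minimum through the control library alone, so for them a lower value with GBP5 was built into the filter, and the counts and median over these 9 genes are a description only. The median log2 ratio of the 9 genes was -0.50, that of all features was 0.48 and that of 8 listed hepatocyte markers was -0.85. After rescaling, all 9 lay below 0, as did 47.6% of all features, with a median of -0.83 against 0.033. Glul, Rnf43 and Oat were then at least 2-fold lower, as were 9.38% of all features, and none was at least 2-fold higher, against 7.04%.

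**Figure D1:**
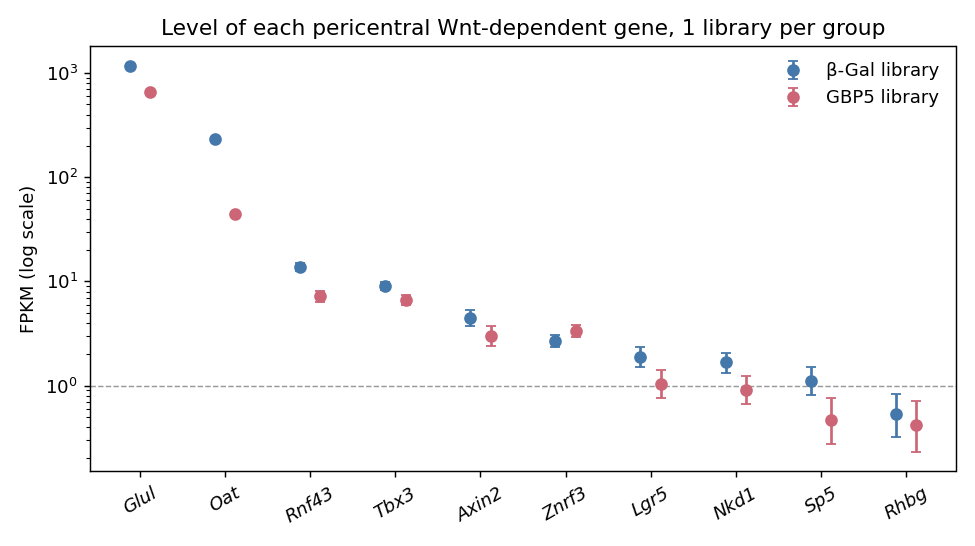
FPKM of the 10 pericentral Wnt-dependent genes on a log axis in the control (β-Gal) library (blue) and the GBP5 library (red), with 95% counting intervals and a dashed line at 1 FPKM. Glul and Oat lie far above the others, and Znrf3 alone has its GBP5 point, 3.36 FPKM, above its β-Gal point, 2.69 FPKM.

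The genes of nitrogen metabolism included the most abundant of the group, Glul and Oat, and the least abundant, Rhbg. Glul encodes glutamine synthetase, the enzyme that joins ammonia to glutamate in the last rows of hepatocytes before the central vein (ENSMUSG00000026473, chromosome 1, 153899944 to 153909723, plus strand, GRCm38). It was at 1173 FPKM in the control library, from 20925 reads, and at 662 FPKM in the GBP5 library, from 11038 reads. The GBP5 library was thus lower, with a ratio of 0.564 (interval 0.551 to 0.577) and a log2 ratio of -0.82, or -1.36 after rescaling. Its level rests on a mean isoform length of 969 bases, and short isoforms raise an FPKM, so the distance between Glul and the other genes is uncertain, whereas its ratio between libraries does not depend on length.

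Oat encodes ornithine aminotransferase, a mitochondrial enzyme that links ornithine to glutamate and proline (ENSMUSG00000030934, chromosome 7, 132557478 to 132576398, minus strand). It was at 235 FPKM in the control library, from 9325 reads, and at 44.3 FPKM in the GBP5 library, from 1644 reads. The ratio was 0.189 (interval 0.179 to 0.199), a 5.30-fold lower level, and the log2 ratio of -2.38 became -2.90 after rescaling. The annotated mean isoform length of Oat did not give whole reads, so its reads were counted with 2155 bases, the nearest length that did. A multiple of that length, with more reads and a narrower interval, would fit the FPKM as well, and the ratio would be the same. Only 0.941% of the features with at least 1 FPKM had a lower log2 ratio than Oat, against 7.02% for Glul. Glul was 4.99 times as abundant as Oat in the control library and 14.9 times in the GBP5 library, in FPKM, so the proportion of these pericentral enzymes differed between the libraries.

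Rhbg encodes an ammonium transporter of the Rhesus family (ENSMUSG00000104445, chromosome 3, 88242874 to 88254709, minus strand). It was at 0.533 FPKM from 19 reads and at 0.420 FPKM from 14 reads. The ratio was 0.788 with an interval of 0.366 to 1.66, so a difference was not detectable at this depth, and the rescaled log2 ratio was -0.25.

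The receptor and the ligases that act at the cell surface differed among themselves. Lgr5, a receptor for R-spondins that marks pericentral hepatocytes (ENSMUSG00000020140, chromosome 10, 115450311 to 115587780, minus strand), was at 1.87 FPKM from 83 reads in the control library and at 1.04 FPKM from 43 reads in the GBP5 library. Its ratio was 0.554 (interval 0.374 to 0.810) and its log2 ratio -0.50, or -0.74 after rescaling. The FPKM ratio of Glul to Lgr5 was 626 in the control library and 637 in the GBP5 library. The 83 and 43 reads of Lgr5 are too few to show that this proportion was unchanged. Lgr4, a related R-spondin receptor with broader expression, was at 26.7 and 19.0 FPKM, a ratio of 0.711 (interval 0.654 to 0.773).

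Rnf43 and Znrf3 encode related membrane ubiquitin ligases that remove Frizzled receptors from the cell surface. Rnf43 (ENSMUSG00000034177, chromosome 11, 87662722 to 87735539, plus strand) was at 13.7 FPKM from 567 reads in the control library and at 7.21 FPKM from 278 reads in the GBP5 library, a ratio of 0.524 (interval 0.453 to 0.606). Znrf3 (ENSMUSG00000041961, chromosome 11, 5276324 to 5444847, minus strand) was at 2.69 FPKM from 202 reads and at 3.36 FPKM from 236 reads, a ratio of 1.25 (interval 1.03 to 1.52). The pair thus lay on opposite sides of parity as deposited, with intervals that did not overlap, and Rnf43 went from 5.12 to 2.15 times the FPKM of Znrf3. Relative to the other genes of the library Znrf3 was not high, since its log2 ratio of 0.24 became -0.15 after rescaling and its interval included the median ratio of 1.45. Rnf43 stood at -0.84, or -1.30 after rescaling.

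The intracellular feedback genes were both lower. Axin2, a scaffold of the complex that marks β-catenin for destruction and a common reporter of Wnt activity (ENSMUSG00000000142, chromosome 11, 108920349 to 108950783, plus strand), was at 4.47 FPKM from 140 reads in the control library and at 3.01 FPKM from 88 reads in the GBP5 library. The ratio was 0.672 (interval 0.509 to 0.884) and the log2 ratio -0.45, or -0.83 after rescaling. Nkd1, which binds Dishevelled and dampens the pathway (ENSMUSG00000031661, chromosome 8, 88521354 to 88594884, plus strand), was at 1.67 FPKM from 86 reads and at 0.911 FPKM from 44 reads, a ratio of 0.547 (interval 0.372 to 0.796) and a log2 ratio of -0.48, or -0.71 after rescaling. Its reads, like those of Oat, are not fixed by the annotated length, and were counted with the nearest whole-read length, 2806 bases.

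Both transcription factors were lower in the GBP5 library. Sp5 belongs to the Sp family and is a direct Wnt target (ENSMUSG00000075304, chromosome 2, 70474923 to 70477729, plus strand). Its promoter held the TCF/LEF letters shown above, and 16.9% of all promoter windows held at least 1 such match. Sp5 was at 1.11 FPKM from 43 reads and at 0.470 FPKM from 17 reads, a ratio of 0.423 with a wide interval of 0.226 to 0.757. At this low level its log2 ratio with a pseudocount of 1 FPKM was only -0.52, or -0.67 after rescaling, although the plain ratio corresponds to a 2.36-fold lower level. Tbx3, a T-box factor of pericentral hepatocytes (ENSMUSG00000018604, chromosome 5, 119670669 to 119684724, plus strand), was at 9.11 FPKM from 526 reads and at 6.63 FPKM from 358 reads. The log2 ratio was -0.41, or -0.86 after rescaling. Its FPKM ratio of 0.728 (interval 0.635 to 0.834) lay above the interval of Glul, whereas the wide interval of Sp5 included the ratios of both Glul and Tbx3.

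**Figure D2:**
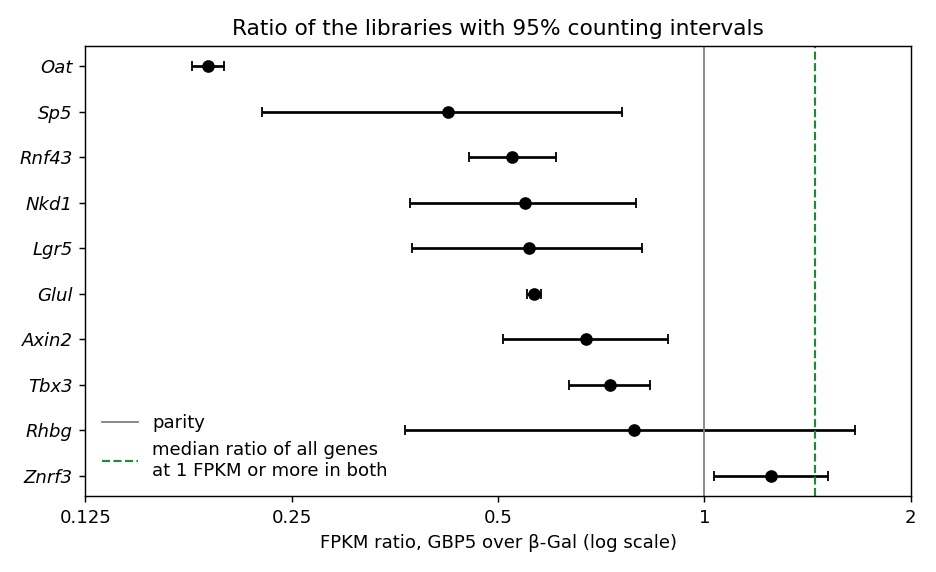
FPKM ratio of the GBP5 library over the control library for each of the 10 genes on a log axis, with exact 95% counting intervals, a solid line at parity and a dashed line at the median ratio of all genes, 1.45. Oat has the smallest ratio of the group, 0.189, and Znrf3 the largest, 1.25, and 6 genes lie between 0.5 and 0.75.

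The ratios of Oat, Tbx3 and Znrf3 differed from the Glul ratio of 0.564 by more than counting error, since their intervals did not include it. The intervals of Lgr5, Axin2, Rnf43, Rhbg, Nkd1 and Sp5 included it, but they were too wide to show that these genes share it, above all those of Rhbg and Sp5. The order of levels in the control library was Glul, Oat, Rnf43, Tbx3, Axin2, Znrf3, Lgr5, Nkd1, Sp5 and Rhbg, and neighbours from Lgr5 downwards had overlapping counting intervals. In the GBP5 library Znrf3 and Axin2 had exchanged places, with overlapping intervals, and those of Rnf43 and Tbx3 and of the neighbours from Lgr5 downwards also overlapped. Over the log2(FPKM + 1) values of both libraries, the protein-coding genes nearest to Glul were Cyb5a (1083 and 662 FPKM), Gsta3 (1258 and 621 FPKM) and Igfbp4 (1329 and 697 FPKM), at distances of 0.12, 0.14 and 0.19. With only 2 libraries that likeness is a matter of level and ratio alone.

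**Figure D3:**
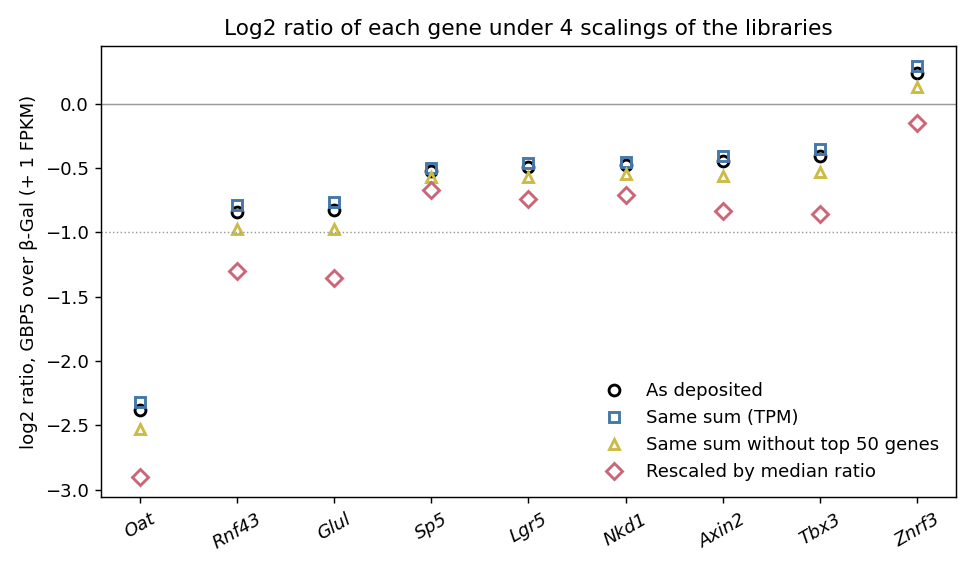
Log2 ratio, with 1 FPKM added, of the 9 genes with at least 1 FPKM in either library under 4 scalings, with a solid line at 0 and a dotted line at -1. Znrf3 crosses 0 when the GBP5 library is rescaled by the median ratio (0.24 to -0.15), and Glul and Rnf43 then pass -1.

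The ligands that the central vein supplies had FPKM ratios above 1 as deposited, although Wnt2 and Rspo3 lay below parity after rescaling. Wnt2 was at 1.45 and 1.73 FPKM, from 60 and 67 reads, a ratio of 1.19 (interval 0.830 to 1.72). Wnt9b was at 0.277 and 0.515 FPKM, from 23 and 40 reads, a ratio of 1.86 (interval 1.09 to 3.26). Rspo3, the R-spondin of the central vein, was at 2.25 and 2.45 FPKM, from 99 and 101 reads, a ratio of 1.09 (interval 0.819 to 1.45). For Wnt2 and Rspo3 a difference was not detectable at this depth. After rescaling, the log2 ratios of Wnt2, Wnt9b and Rspo3 were -0.16, 0.09 and -0.27. Among 14 listed genes for Wnt ligands, R-spondins and their secretion, 7 reached 1 FPKM. None of these was at least 2-fold higher, against 19.2% of all features. Wnt5b was at least 2-fold lower, as were 5.56% of all features, and went from 5.55 to 2.20 FPKM (ratio 0.395, interval 0.305 to 0.509). Wnt5a, a ligand of β-catenin-independent signalling, was at 1.14 and 2.86 FPKM, Wnt4 at 0.609 and 1.27 FPKM, and Wls, the carrier that brings Wnt proteins to the cell surface, at 4.77 and 9.03 FPKM. Wnt4 reached 1 FPKM through the GBP5 library alone, so its higher value was built into the filter.

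The receptors and transducers of the pathway lay near the median of all genes. Of 30 listed, 26 reached 1 FPKM, 3 passed 2-fold upwards and 0 downwards, with a median log2 ratio of 0.50 against 0.48 for all features. Among all features, 19.2% passed 2-fold upwards and 5.56% downwards. None of the 26 passed 2-fold in either direction after rescaling. The 3 were Tcf7l2 (5.90 and 14.4 FPKM), the main TCF factor of hepatocytes, Tcf7l1 (3.03 and 7.81 FPKM), and the Wnt coreceptor Lrp5 (14.0 and 30.4 FPKM). Ctnnb1, which encodes β-catenin, was at 158 and 264 FPKM, a ratio of 1.67 (interval 1.61 to 1.73), and the kinase gene Gsk3b, whose product phosphorylates β-catenin, was at 14.4 and 28.9 FPKM.

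Other genes that Wnt can induce went in both directions. Of 14 listed, 9 reached 1 FPKM, 3 were at least 2-fold higher and 1 was lower, with a median log2 ratio of 0.69. Fosl1 (0.223 and 1.23 FPKM) reached 1 FPKM through the GBP5 library alone, so its higher value was built into the filter. After rescaling the median became 0.18, with 2 higher and 1 lower. The shares of all features were 19.2% higher and 5.56% lower, or 7.04% and 9.38% after rescaling. Notum, a secreted enzyme that inactivates Wnt proteins, was the lower gene, at 8.78 FPKM from 258 reads and 2.26 FPKM from 62 reads, a ratio of 0.257 (interval 0.192 to 0.340). The higher genes were Birc5 (4.11 and 16.7 FPKM), Myc (5.87 and 18.5 FPKM) and Cd44 (13.1 and 36.4 FPKM), which respond to proliferation and injury signals as well, and Ccnd1 was at 16.4 and 27.1 FPKM. All 7 listed proliferation markers were at least 2-fold higher in the GBP5 library, with a summed level of 130 FPKM in the control library and 600 FPKM in the GBP5 library, and their part in these values was not tested. Among 12 secreted antagonists, 3 reached 1 FPKM, namely Notum, Frzb (1.53 and 3.94 FPKM) and Dkk3 (0.874 and 1.37 FPKM). Notum was thus on both lists, and Dkk3 reached 1 FPKM through the GBP5 library alone.

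**Figure D4:**
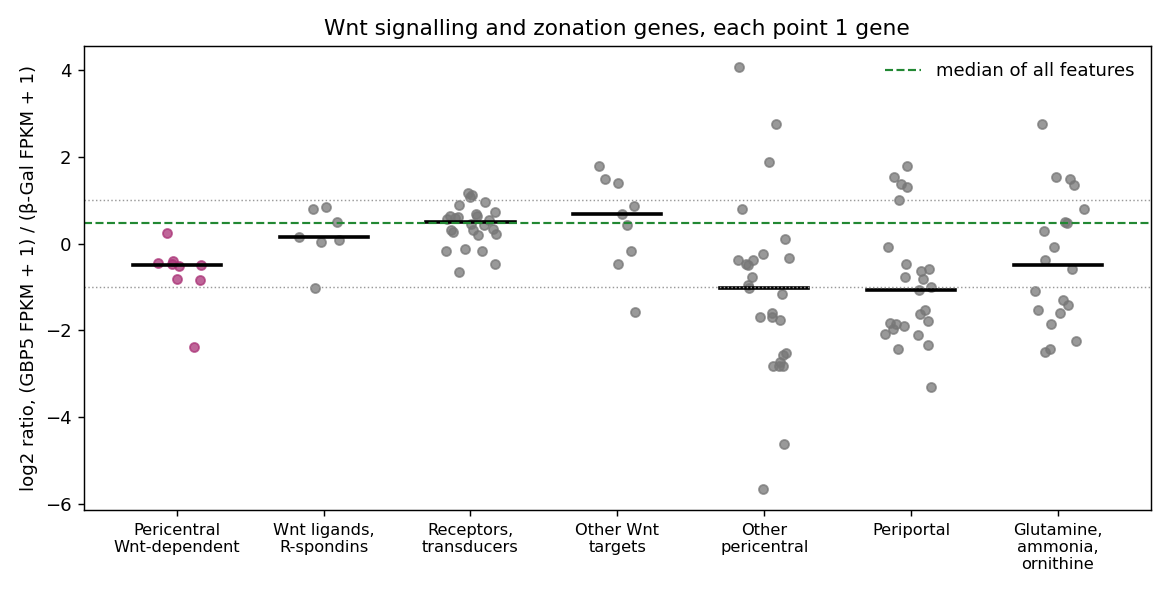
Log2 ratio, (GBP5 FPKM + 1) over (β-Gal FPKM + 1), of the genes with at least 1 FPKM in either library in each list; bars are list medians, the dashed line is the median of all features (0.48) and dotted lines mark 2-fold. The pericentral Wnt-dependent genes have a median of -0.50, against 0.50 for receptors and transducers, -1.03 for other pericentral genes and -1.07 for periportal genes. The added 1 FPKM understates the change of genes at low levels, such as Lgr5, Nkd1 and Sp5, so list medians cannot be compared directly. Hepatocyte markers, which are not drawn, had a median of -0.85.

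Lower values were found on both sides of the lobule. Across all features, 5.56% were at least 2-fold lower and 19.2% higher, or 9.38% and 7.04% after rescaling. Of 27 other pericentral genes, 14 were at least 2-fold lower and 3 higher, with a median log2 ratio of -1.03, or 17 lower and 3 higher after rescaling. Cyp2e1, the pericentral cytochrome that oxidises ethanol, was at 2576 and 362 FPKM, Rgn, which encodes the calcium-binding protein regucalcin, at 607 and 84.5 FPKM, and Cyp1a2 at 289 and 205 FPKM. The widest ratios were those of the P450 genes Cyp2c54 and Cyp2c50, with log2 ratios of -5.66 and -4.64, and of the glutathione transferase Gstm3, at 4.08, and all 3 have close paralogues that may share reads. Of 25 periportal genes, 13 were at least 2-fold lower and 5 higher, with a median of -1.07, or 18 lower and 2 higher after rescaling. Cyp2f2, a periportal cytochrome, was at 311 and 89.4 FPKM, Hal, which breaks down histidine, at 145 and 13.7 FPKM, the gluconeogenic Pck1 had a log2 ratio of -2.34, and Igfals, the acid-labile subunit that binds IGF, one of -2.10. The difference between the lists was not tested.

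Among genes that handle glutamine, ammonia and ornithine, 9 of the 20 that reached 1 FPKM were at least 2-fold lower and 4 higher. The lists overlap. The lower Gls2, Ass1 and Asl were also counted as periportal, and the lower Slc1a2 and higher Slc1a4 as other pericentral genes. After rescaling these counts were 10 and 2. For all features the shares were 5.56% lower and 19.2% higher, or 9.38% and 7.04% after rescaling. The median log2 ratio of the 20 genes was -0.48 as deposited. Gls2, the periportal glutaminase that releases ammonia from glutamine, was at 222 and 40.6 FPKM, a ratio of 0.183 (interval 0.170 to 0.196) beside 0.564 for Glul, which makes glutamine. Slc38a3, a glutamine transporter, was at 1112 and 195 FPKM, and Slc1a2, a pericentral glutamate transporter, at 100.3 and 32.3 FPKM. The urea cycle gene Ass1 was at 3015 and 1044 FPKM, Cps1 at 436 and 290.3 FPKM, and Arg1, whose product makes the ornithine that Oat uses, at 1136 and 1079 FPKM. Prodh, which breaks down proline, was at 176 and 36.2 FPKM. The 4 higher genes included Slc1a4, a neutral amino acid transporter (1.57 and 16.3 FPKM), Aldh18a1, an enzyme of proline and ornithine synthesis (3.13 and 11.1 FPKM), and Odc1, which turns ornithine into polyamines (27.1 and 78.5 FPKM). Glud1, the glutamate dehydrogenase of mitochondria, was at 940 and 1324 FPKM.

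Markers of other cells are given as a description, since many features passed 2-fold. At least 2-fold higher were 19.2% of all features and 5.56% were lower, or 7.04% and 9.38% after rescaling. The median FPKM ratio of all genes at 1 FPKM or more in both libraries was 1.45. All 8 hepatocyte markers were detected, as the labelled tissue calls for, and 3 of them passed 2-fold downwards, or 6 after rescaling, and 0 upwards under either scaling. Their median log2 ratio was -0.85, or -1.38 after rescaling, lower than the -0.50 and -0.83 of the 9 pericentral genes. The hepatocyte markers summed to 88794 and 51571 FPKM, most of which was albumin (Alb), at 74174 and 43416 FPKM with a ratio of 0.585 (interval 0.584 to 0.587). The FPKM of Glul over that of Alb was 0.0158 in the control library and 0.0152 in the GBP5 library. The FPKM ratios of the markers were unequal, from 0.317 for the fibrinogen gene Fgb and 0.419 for Serpina1a to 0.916 for the transcription factor Hnf4a and 1.04 for the apolipoprotein gene Apob. The cause of these values was not tested, and FPKM from bulk tissue gives neither the number of hepatocytes nor the RNA per hepatocyte. Central vein endothelial markers, which include Wnt2, Wnt9b and Rspo3, summed to 9.48 and 14.2 FPKM, and Thbd made most of that difference, at 1.01 and 4.84 FPKM, whereas Cdh13 was at 0.979 and 0.497 FPKM (ratio 0.508, interval 0.278 to 0.898). Of the 4 that reached 1 FPKM, Thbd alone passed 2-fold, also after rescaling. Sinusoidal endothelial markers summed to 201 and 256 FPKM, with 2 of 9 higher and none lower as deposited, but none higher and 1 lower after rescaling. T and NK cell markers summed to 36.1 and 112 FPKM, with 5 of 7 higher, or 3 after rescaling. Kupffer and other macrophage markers summed to 317 and 539 FPKM, with 2 of 6 higher and 1 lower, of which the lower gene alone passed 2-fold once rescaled. Stellate cell markers summed to 74.7 and 138 FPKM, with 2 of 8 higher, or 1 after rescaling. Neutrophil markers summed to 1922 and 199 FPKM, with 7 of 7 lower, before and after rescaling. Pancreatic acinar markers, with 8 of 8 lower, summed to 883 FPKM in the control library and 13.6 FPKM in the GBP5 library, with Cpa1, Cpb1, Pnlip, Cel and Ctrb1 at 0 in the latter, and cholangiocyte markers to 74.7 and 62.3 FPKM, with 1 of 6 lower. Their part in the values of the pericentral genes was not tested.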

How the data were processed

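The series holds 1 RNA sequencing library of mouse liver per group, and groups follow the adenovirus label. Per the labels' protocols, TriPure was used on frozen liver and library preparation followed Illumina's standard procedure. The authors deposited FPKM values, and the submitters' processing notes name TopHat2, HTSeq 0.6.1 and GRCm38. The labels do not state the annotation release, strand setting or FPKM program.

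Symbols and positions came from GENCODE M21 (GRCm38) for 46574 of 47442 features, and of 215 listed symbols 214 matched directly and 1 through a RefSeq synonym. Reads were recovered as the whole numbers that FPKM, a whole gene length and an integer library total give, within a tolerance of 1e-06 reads, or of 1e-06 per 1000 reads above that. The length was the rounded mean isoform length for 68.6% of features above 0, 8 of the 10 genes included, and otherwise the nearest length that gave whole reads in both libraries. Recovered reads summed to 100.14% and 100.02% of the totals. The log2 ratio of the deposited values used a pseudocount of 1 FPKM, for features reaching 1 FPKM in at least 1 library, with 2-fold as the size rule. A feature that reached that minimum in 1 library alone was bound to be higher there. Intervals were Clopper-Pearson (ratios) and exact Poisson (levels). Python 3.11.15, pandas 2.3.3 and SciPy 1.17.1 were used. The procedure was tested on reads simulated with the rounded mean isoform lengths, so the search for another length was not tested.

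The genes, lists and rules were chosen with earlier results of these data known. Named genes were the 10, the 4 largest absolute log2 ratios of each list that reached 1 FPKM, and the 3 nearest to Glul. A fixed set of pathway, zonation and control genes was also named. Slc1a2, Asl, Aldh18a1, Odc1, Fosl1, Fgb, Serpina1a, Trf, Hnf4a, Apob, Thbd, Cdh13 and the acinar genes at 0 were named after their values were seen. The alternatives were other pseudocounts, filters and scalings of the libraries.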

Additional observations from a re-analysis of the deposited data

How the results depend on the processing

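Only Oat had a 2-fold call that could reverse, and it did not under the alternatives run. The number of genes of the group at least 2-fold higher was 0 under all 7. Znrf3, which had no such call, went from 0.24 to -0.15 after rescaling by the median ratio. That rescaling moved 5 log2 ratios by more than the width of their counting intervals and left 4 within it. The shift was taken with 1 FPKM added and the width from the plain FPKM ratio, which favours the count within for low genes. The number at least 2-fold lower was 1 as reported, 2 with a pseudocount of 0.1 FPKM and 3 after rescaling by the median ratio. A filter of 5 FPKM left 4 of the 9 genes, all 4 below parity, because fewer genes passed it. The median log2 ratio of all features, 0.48 as reported, became 0.30 with a pseudocount of 5 FPKM, 0.21 with no filter, 0.033 after rescaling by the median ratio and 0.36 with equal sums without the 50 most abundant genes. Features past 2-fold numbered 1101 higher and 435 lower with a pseudocount of 5 FPKM, and 958 higher and 1276 lower after rescaling.

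For the lists, a pseudocount of 0.1 FPKM gave 1 ligand, 5 receptors or transducers and 1 antagonist higher. A pseudocount of 5 FPKM gave 0 ligands, 0 antagonists and 0 other targets lower, and 0 receptors or transducers higher. Rescaling by the median ratio gave 0 receptors or transducers, 2 periportal genes and 2 glutamine, ammonia and ornithine genes higher. Equal sums (TPM) gave 0 ligands lower and 1 antagonist higher, and equal sums without the 50 most abundant genes gave 1 receptor or transducer higher. The cause of these shifts was not tested. No paired analysis was possible because each group holds 1 library, and no library could be left out. Reads limited Rhbg (19 and 14) and Sp5 (43 and 17) most.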
